A study of Drosophila melanogaster with 2 samples.

Results

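The genes described here encode the translation initiation and elongation factors of Drosophila melanogaster. They were taken by name, as every nuclear protein-coding gene of the Ensembl release 115 annotation whose symbol starts with eIF or eEF. This gave 52 of 13968 genes, 44 eIF and 8 eEF genes. Occupancy of the heterochromatin protein Su(var)2-HP2 at their start sites was read from ChIP-seq of whole embryos aged 0 to 10 h. The embryos belong to a transgenic line with stable expression of Su(var)2-HP2 carrying GFP at its C terminus, and the chromatin was precipitated through the GFP. The labels do not name the promoter of the transgene. There is 1 group with 2 biological replicates, numbered 4 and 6, so genes were set beside other genes and replicate beside replicate, and no test between conditions was possible. Whole embryos mix many cell types, and strong occupancy in few cells cannot be told apart from weak occupancy in many.

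Initiation factors bring the initiator tRNA, the small ribosomal subunit and the capped mRNA together and find the start codon, and elongation factors deliver aminoacyl-tRNAs and move the ribosome along. Most of these genes are active in nearly all cells. Su(var)2-HP2 binds HP1, the structural protein of silent chromatin that is abundant near centromeres and on the small chromosome 4. Genes in such chromatin can be active there. Among the 52 genes, eIF4B lies in pericentromeric DNA, eIF4G1 lies on chromosome 4 and the other 50 lie on the chromosome arms.

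The sequence around the summit (the position of highest signal in a peak) is shown for 6 genes that differ in place and strength: eIF4B and eIF4G1 in heterochromatic parts, eEF1delta as a strong arm gene, and eIF5, eEF1gamma and eIF1 as weaker arm genes. Each runs 5′ to 3′ on the strand of the named gene, from up to 100 bases before the summit to up to 100 after it, and ends where an annotated exon begins, as read from the RefSeq assembly. Capitals mark matches to motifs searched on both strands, here TATCGATA (the DNA replication-related element, DRE), CGATA (the core of the BEAF-32 site, which the DRE contains) and GCCAT (the Pho core), of the 8 motifs described with the promoters. The places in the dm6 build are chr3L:27858272-27858462 (minus strand) for eIF4B, chr4:930863-931063 (minus) for eIF4G1, chr2L:10232272-10232472 (plus) for eEF1delta, chrX:15992152-15992352 (minus) for eIF5, chr3R:29220052-29220171 (plus) for eEF1gamma and chr3L:3222961-3223103 (plus) for eIF1.
eIF4B: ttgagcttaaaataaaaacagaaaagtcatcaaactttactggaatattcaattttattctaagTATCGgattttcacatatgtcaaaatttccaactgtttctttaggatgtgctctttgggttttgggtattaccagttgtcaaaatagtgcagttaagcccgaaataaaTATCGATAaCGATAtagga
eIF4G1: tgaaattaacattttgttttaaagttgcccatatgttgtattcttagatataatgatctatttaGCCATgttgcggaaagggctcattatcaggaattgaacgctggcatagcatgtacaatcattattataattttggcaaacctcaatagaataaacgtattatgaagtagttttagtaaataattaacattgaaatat
eEF1delta: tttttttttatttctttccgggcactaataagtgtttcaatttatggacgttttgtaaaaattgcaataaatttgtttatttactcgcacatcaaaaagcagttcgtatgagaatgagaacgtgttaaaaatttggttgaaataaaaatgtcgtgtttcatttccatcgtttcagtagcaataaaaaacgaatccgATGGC
eIF5: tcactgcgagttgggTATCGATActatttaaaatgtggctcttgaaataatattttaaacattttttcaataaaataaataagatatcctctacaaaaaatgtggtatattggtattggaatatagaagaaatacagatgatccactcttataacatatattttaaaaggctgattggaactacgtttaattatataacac
eEF1gamma: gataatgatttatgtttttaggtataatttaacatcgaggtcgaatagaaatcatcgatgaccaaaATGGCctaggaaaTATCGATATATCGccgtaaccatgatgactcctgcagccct
eIF1: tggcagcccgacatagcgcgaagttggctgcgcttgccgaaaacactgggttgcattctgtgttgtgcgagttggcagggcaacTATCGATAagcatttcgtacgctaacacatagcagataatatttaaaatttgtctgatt

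The eIF4B stretch ends at the base before its start site, holds a DRE and another CGATA close to that end, and has a CGATA match on the other strand before the summit. The eEF1gamma stretch holds a DRE directly followed by a further CGATA match on the other strand, both shortly before the summit, which is base 101 of the 120 shown. The eIF5 DRE lies at the far side of the summit from eIF5, toward the divergent gene exd. The eIF1 DRE lies between the summit, base 43 of the 143 shown, and eIF1. The eIF4G1 stretch has GC content of 28.4% and the eIF5 stretch 26.4%, and the matches in the eIF4G1 and eEF1delta stretches are of GCCAT alone.

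Su(var)2-HP2-GFP peaks were present at the start sites of 12 of the 52 translation factor genes, in order of signal eIF4B, eEF5, eIF4G1, eEF1delta, eEF1alpha1, eIF4EHP, eIF5, eEF1gamma, eIF6, eIF1, eIF5B and eEF2. A gene was counted when a summit of the IDR list, the list of 2006 peaks thresholded on agreement between the replicates, lay within 500 bp of one of its start sites. The share was 23.1% (Wilson 95% interval 13.7 to 36.1), against 1235 of all 13968 nuclear protein-coding genes, 8.84%. Of the 12 members, 9 had an IDR peak that was also among the 2006 strongest of each replicate, 17.3% of the 52, against 6.64% of all genes. On the chromosome arms 10 of 50 members were counted, 20% (11.2 to 33), against 8.01% of all arm genes. The eIF4B and eIF4G1 peaks stand beside backgrounds of 46.1% of pericentromeric and 63.8% of chromosome 4 genes. The share was not tested, intervals cover counting error only, and genes that share a promoter are not independent.

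Peaks of the longer lists were also frequent at these genes. In the pooled list of 30000 peaks, which contains the IDR peaks, 35 of the 52 genes had a summit within 500 bp of a start site. This was 67.3%, against 37.9% of all genes. For 23 of the 35 the summit was below the IDR list. Over all 13968 genes, 5299 had a pooled summit, and 1235 of these had an IDR summit. Pooled peaks with a deposited q-value under 0.05 lay at 29 members, the 12 IDR members among them, 55.8%, against 26.6% of all genes. The 30000 peaks of replicate 4 reached 33 members, against 41% of all genes, and those of replicate 6 reached 27 members, against 35.7%. Among the 2006 strongest peaks of replicate 4 alone 10 members were counted, against 8.46% of all genes, and among those of replicate 6 alone 11, against 8.74%. At every signal level up to that of eIF4B, the share of members with a summit at least that strong was no lower than the share of all genes.

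**Figure D1:**
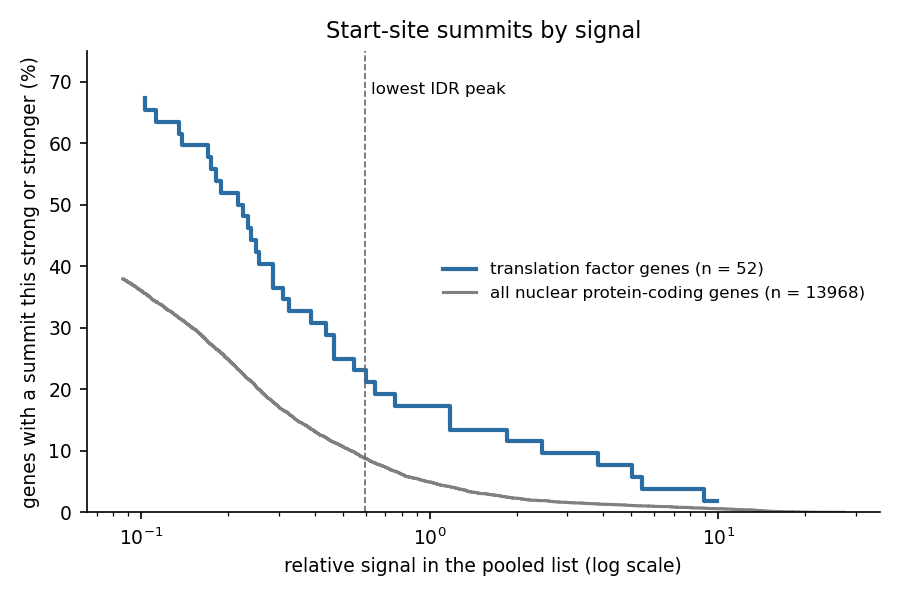
Share of genes (percent, vertical axis) whose highest start-site summit in the pooled list is at least as strong as the relative signal on the logarithmic horizontal axis, for the 52 translation factor genes (blue) and all 13968 nuclear protein-coding genes (grey). The blue line ends at 67.3% on the left and the grey line at 37.9%, and the dashed line marks the lowest IDR peak, a relative signal of 0.594.

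Signal values are the authors' scores on a scale not given in the sources used here. Each was therefore divided by a median taken in its own list over the 2006 peaks with the highest values, which was 204 in the pooled list, 127 in replicate 4 and 90.1 in replicate 6, and the result is called relative signal. The median relative signal in the pooled list was 0.324 over the 35 members with a summit and 0.27 over the 5299 genes with a summit. With genes lacking a summit placed lowest, the median over all 52 members was 0.221, while the middle gene of all 13968 had no summit. Among IDR summits alone the median was 2.15 over the 12 members and 1.1 over 1235 genes. On the arms alone it was 1.51 over 10 members and 1.02 over 1095 genes.

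eIF4B (FBgn0020660), whose product helps the helicase eIF4A unwind mRNA leaders, had the highest signal of the family. Its relative signal was 8.28 in replicate 4 and 10.7 in replicate 6, a mean of 9.51 ± 1.74 (SD, n = 2). The summit lay at position 27858362 of 3L, 91 bp before the start site and inside an intron of lncRNA:CR46482, and the replicate summits were 4 bp apart. The called interval was 3640 bp wide, from 27858118 to 27861757, and held 6 summits. A second IDR summit in it, at 27858564, had a pooled relative signal of 2.92. The gene itself, 15603 bp long, held no pooled summit. eIF4B ranked 47 of the 89 pericentromeric genes with an IDR summit, whose median was 10.3.

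eIF4G1 (FBgn0023213), the scaffold that joins the cap-binding protein to the small ribosomal subunit, is the chromosome 4 member. Its relative signal was 5.69 in replicate 4 and 5.24 in replicate 6, 5.47 ± 0.32 (SD, n = 2). The pooled summit was at position 930963 of chromosome 4, 248 bp before the start site, in an interval of 1477 bp with 2 summits. The replicate 4 summit lay 134 bp from that of replicate 6, at 930830, the widest gap among the members in the IDR list. It ranked 34 of 51 chromosome 4 genes with an IDR summit, 0.6 times their median of 9.1. Further pooled summits lay inside the gene, the strongest at 927935 in a coding exon with a relative signal of 0.573, just below the IDR list. Its paralog eIF4G2 on 3R had a pooled relative signal of 0.311, with 0.399 in replicate 4 and 0.138 in replicate 6, and no IDR summit.

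Arm members did not all lie below the chromosome 4 member. eEF5 (FBgn0285952), the fly homolog of eIF5A that helps ribosomes past stalling peptides, had relative signals of 8.86 in replicate 4 and 7.97 in replicate 6, 8.42 ± 0.629 (SD, n = 2). Both replicate values were above both eIF4G1 values, and eEF5 overlapped eIF4B, whose replicate 4 value was lower and whose replicate 6 value was higher. The eEF5 summit, at position 24057755 of 2R, lay 43 bp before a start site in an interval of 1300 bp. It ranked 18 of the 1095 arm genes with an IDR summit, 8.79 times their median of 1.02. Within 50 kb on each side of the start there were 15 IDR summits, and that of eEF5 was the highest.

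The other elongation factor of this kind, eEF2 (FBgn0000559), the GTPase that moves the ribosome by 1 codon, was the weakest of the 12. Its relative signal was 0.598 in replicate 4 and 0.506 in replicate 6, 0.552 ± 0.0654 (SD, n = 2), and its summit lay in the 5' UTR, 5 bp from the start site, at position 21682159 of 2L. It ranked 1078 of 1095 arm genes with an IDR summit and 1962 in the pooled list. Its peak ranked below the 2006 strongest in both replicates, 2114 in replicate 4 and 2603 in replicate 6. The start of eEF2 is 0.32 Mb from the rounded pericentromeric border used here, so its place on the arm depends on that border.

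The eEF1 genes, whose products deliver aminoacyl-tRNA and recharge the carrier with GTP, were split. eEF1delta, an exchange factor subunit on 2L, had relative signals of 4.09 in replicate 4 and 5.72 in replicate 6, 4.9 ± 1.15 (SD, n = 2), which overlap the eIF4G1 values. Its summit, at 10232372, was 135 bp before the start in an interval of 2547 bp with 4 summits. It stands in a dense stretch of peaks, with 21 IDR summits within 50 kb on each side, the highest at 14.5. eEF1alpha1, the tRNA carrier, had 3.53 in replicate 4 and 3.76 in replicate 6, 3.64 ± 0.164 (SD, n = 2). Its summit lay in its own intron, 113 bp before an internal start site and 874 bp past the outermost one.

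eEF1gamma on 3R had relative signals of 1.21 in replicate 4 and 0.923 in replicate 6, 1.07 ± 0.202 (SD, n = 2), with the summit 20 bp before the start. These values were near the median of 1.02 for arm genes with an IDR summit. The second carrier gene eEF1alpha2 had a pooled summit outside the IDR list, with relative signals of 0.193 in replicate 4 and 0.246 in replicate 6, far below both values of eEF1alpha1. eEF1beta and the selenocysteine factor gene eEFSec had no pooled summit. In all, 5 of the 8 eEF genes and 7 of the 44 eIF genes had an IDR summit, beside 8.84% of all genes, and the difference between the eEF and eIF genes was not tested.

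**Figure D2:**
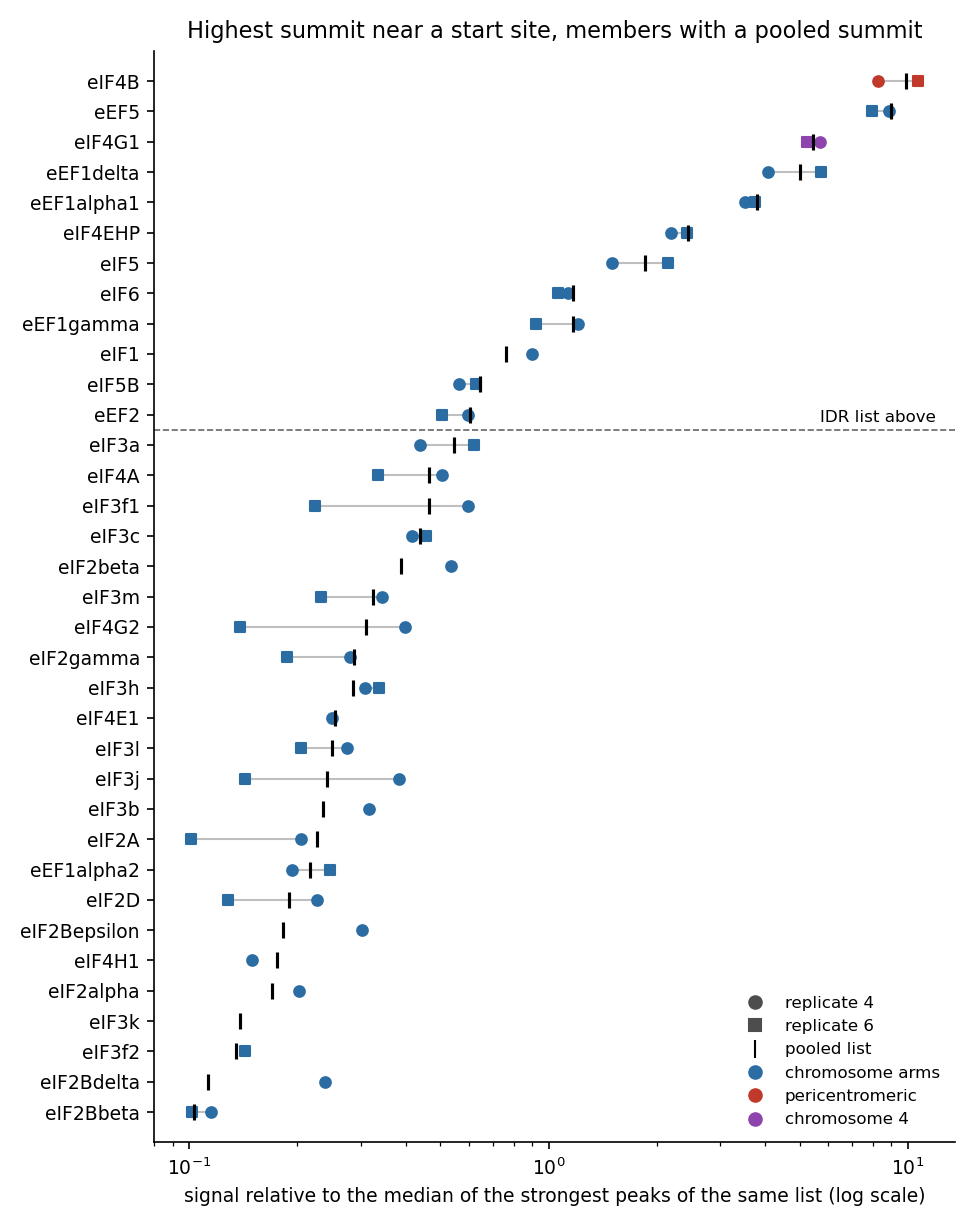
Relative signal (logarithmic axis, no unit) of the highest summit within 500 bp of a start site for the 35 members with a pooled summit, ordered by pooled value. Circles are replicate 4, squares replicate 6, ticks the pooled list, and colours the part of the genome; the 12 genes above the dashed line are in the IDR list, and eIF4B, eEF5 and eIF4G1 lead.

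Of the 3 genes of start codon selection 2 had an IDR summit, eIF5 and eIF1, both with a summit nearer to another gene, and both genes of subunit joining, eIF5B and eIF6, had one, beside 8.84% of all genes. eIF5, which makes eIF2 hydrolyse its GTP at the start codon, had relative signals of 1.5 in replicate 4 and 2.15 in replicate 6, 1.83 ± 0.46 (SD, n = 2). Its summit at position 15992252 of X lay 278 bp before the start that eIF5 shares with CG46312 and 216 bp from that of the divergent homeodomain gene exd, so the peak lies near the starts of 3 protein-coding genes. eIF1, which keeps the scanning ribosome open, had a summit 338 bp from its start but 43 bp from that of the ribosomal protein gene RpL28. Its relative signal was 0.76 in the pooled list and 0.899 in replicate 4, and replicate 6 had no summit within 500 bp. eIF1A, the partner of eIF1, had no summit in the pooled list or in either replicate.

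eIF5B, the GTPase of subunit joining, had relative signals of 0.564 in replicate 4 and 0.627 in replicate 6, 0.596 ± 0.0445 (SD, n = 2). Its summit was in its 5' UTR, 164 bp before the inner start site, and was the lone IDR summit within 50 kb on each side. eIF6, which keeps the large subunit from joining early, had 1.13 in replicate 4 and 1.06 in replicate 6, 1.1 ± 0.0514 (SD, n = 2), with a summit 109 bp before its start and 80 bp from that of asRNA:CR45928. The eIF6 and eEF1gamma values overlapped, and those of eIF5B were below both.

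Of the 7 cap-binding genes 1 had an IDR summit, eIF4EHP, a count too small to set apart from the 8.84% of all genes. It encodes a cap-binding protein that represses translation. Its relative signal was 2.19 in replicate 4 and 2.43 in replicate 6, 2.31 ± 0.172 (SD, n = 2), and its summit lay 197 bp from its start and 179 bp from that of the divergent gene CG18428. eIF4E1, the main cap-binding protein, had a pooled relative signal of 0.255, 0.249 in replicate 4 and no summit in replicate 6. The paralogs eIF4E3, eIF4E4, eIF4E5, eIF4E6 and eIF4E7 had no summit in the pooled list or in either replicate.

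The genes of the large initiation complexes had weaker peaks or none. Of the 16 eIF3 genes, which encode the scaffold on the small subunit and some paralogs, 0 had an IDR summit, 10 had a weaker pooled summit and 6 had none. Of the 5 genes listed with eIF2, the carrier of initiator tRNA, 0 had an IDR summit and 5 a weaker one, with pooled relative signals up to 0.388 at eIF2beta. Of the 5 eIF2B genes, which encode its exchange factor, 0 had an IDR summit and 3 a weaker one. Beside the 8.84% of all genes with an IDR summit, counts of 0 in groups of this size do not set these genes apart. The weaker peaks stand beside the 37.9% of all genes with any pooled summit, and neither count was tested.

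**Figure D3:**
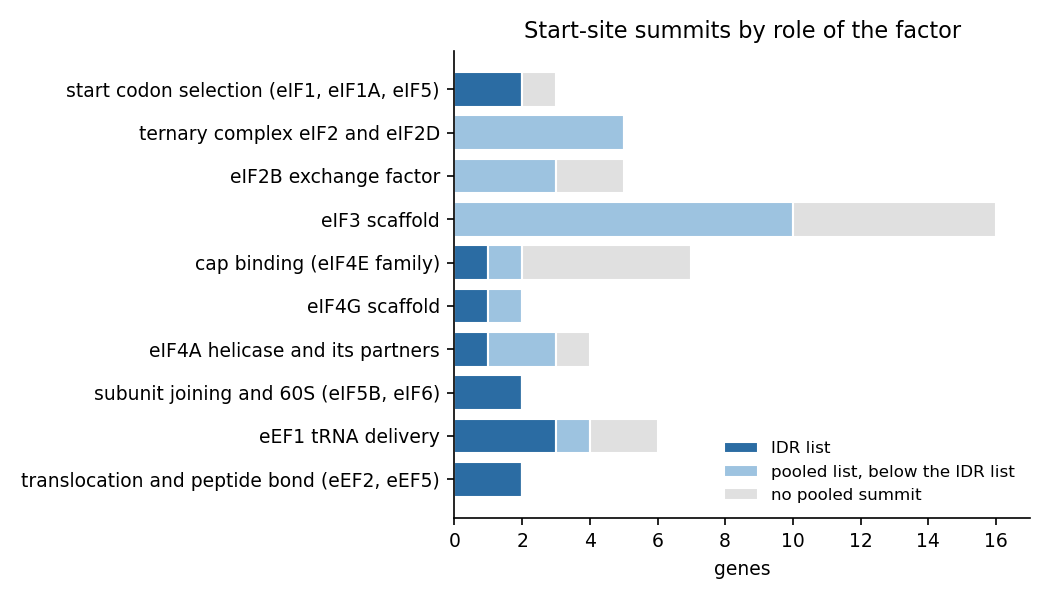
Number of genes (horizontal axis) with a start-site summit in the IDR list (dark blue), in the pooled list below it (light blue) or with no pooled summit (grey), for each role of the factors. The IDR list holds 0 of the 16 eIF3 genes and 3 of the 6 genes grouped with eEF1 (eEFSec among them), beside 8.84% of all genes. The groups are small, were chosen with earlier results known, and their differences were not tested.

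The members just inside and just outside the IDR list differed little. The weakest inside was eEF2, with a pooled relative signal of 0.603, and the strongest outside was eIF3a, the largest eIF3 subunit, with 0.546. eIF3a had 0.44 in replicate 4 and 0.62 in replicate 6, so its replicate 6 value was above both of eEF2, and its summit is 22 bp from the start of CG1074 and 48 bp from its own. The helicase gene eIF4A followed with 0.505 in replicate 4 and 0.335 in replicate 6. The eIF3 subunit gene eIF3f1 had 0.596 in replicate 4 and 0.224 in replicate 6, and eIF3c had 0.417 in replicate 4 and 0.457 in replicate 6. eIF2beta had 0.535 in replicate 4 and no summit in replicate 6.

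The replicates ordered the members alike where both had a summit. Across the 25 such genes Spearman's rho was 0.91, as a description across genes that share the same libraries, and across the 4093 genes of the whole annotation it was 0.77. Of the 11 IDR members with both values, 5 were higher in replicate 4 and 6 in replicate 6. Of the 14 weaker ones, 10 were higher in replicate 4, and 58.2% of all genes were. A further 8 members had a summit in replicate 4 only, 2 in replicate 6 only and 17 in neither. With members in both included, 33 of the 52 had a summit in replicate 4 and 27 in replicate 6. Over all 13968 genes, 5726 had a summit in replicate 4, 4990 in replicate 6 and 4093 in both. The single-replicate counts were not tested. The replicate summits of the IDR members were 4 to 134 bp apart, with a median of 35 bp, against 31 bp for all genes with an IDR summit.

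Summits lay upstream of the nearest start site at 11 of the 12 IDR members and at 92.2% of all genes with an IDR summit. The median distance was 124 bp, against 145 bp for all such genes, with a range of 5 to 338 bp. Peaks shared with a start of another protein-coding gene were found at 3 of the 12 (25%), namely eIF1, eIF4EHP and eIF5, and at 58.1% of all genes with an IDR summit. For eIF1, eIF4EHP, eIF5 and eIF6 the summit was closer to the start site of another gene than to that of the factor. This leaves 8 members with a summit nearest to themselves, a count that was not made over all genes. The median called interval was 456 bp, against 430 bp for all genes with an IDR summit, and the 4 strongest members had the 4 widest, from 1300 to 3640 bp.

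**Figure D4:**
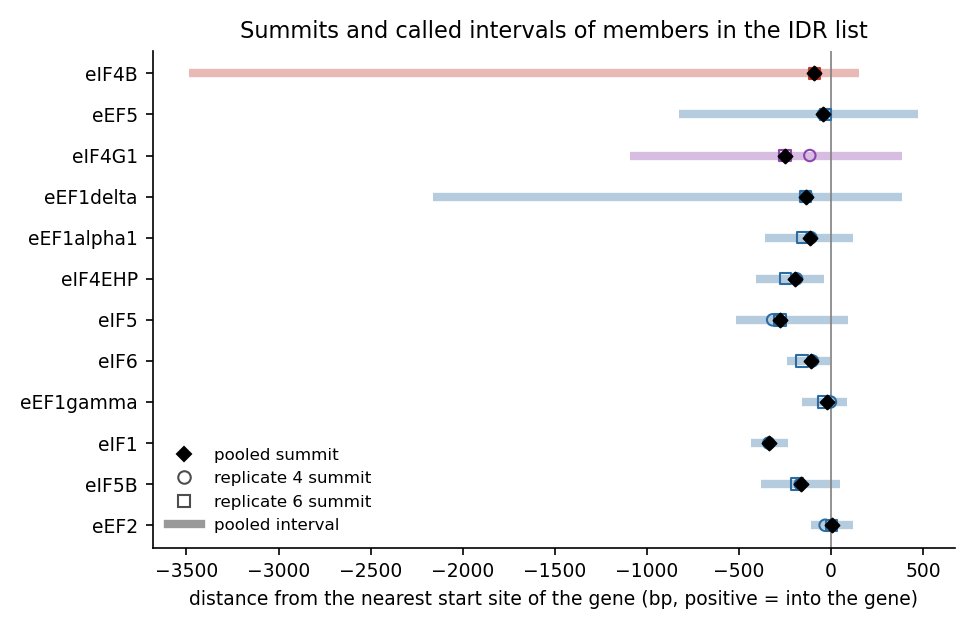
Position of the pooled summit (diamond), the replicate summits (circle for replicate 4, square for replicate 6) and the called pooled interval (bar, coloured as blue for arms, red for pericentromeric and purple for chromosome 4) of the 12 IDR members, in bp from the nearest start site with positive values inside the gene. All but the eEF2 summit lie upstream of the nearest start site. The eEF1alpha1 and eIF5B summits lie before an internal start site and so are still inside the gene. The eIF4B and eEF1delta intervals reach farthest from the start.

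Promoter windows from 250 bases before to 50 bases after the outermost start were searched for 8 motifs on both strands and for CTTTT on the gene strand within 20 bases of the start. For some IDR members the summit lay outside this window. It was 874 bp past the outermost start at eEF1alpha1 and 210 bp past it at eIF5B. At eIF1 it was 338 bp before that start and at eIF5 278 bp before it. The DRE was in 14 of 52 members, 26.9% (Wilson 95% interval 16.8 to 40.3), against 14.9% of genes with an IDR summit and 9.36% of all promoters. It was in 4 of the 12 with an IDR summit, eIF4B, eEF1delta, eEF1gamma and eIF6, and in 10 of the 40 without, 33.3% and 25%. Within 100 bases of the summit it was at eIF4B, eIF5, eEF1gamma and eIF1, again 4 of 12, against 7.5% of the 867 distinct summits at all IDR genes. CGATA, which every DRE match includes, was in 10 of the 12 and in 23 of the 40, against 55% of genes with an IDR summit and 47.3% of all promoters. Without a DRE it was in 6 of the 12 and 13 of the 40, against 495 of the 1235 genes with an IDR summit and 5304 of all 13968.

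The other motifs were GGTCACAC (M1BP), CAGCTG (E-box), TATAAA (a core promoter element), GAGAG (the site of the Trl protein), GCCAT (Pho) and TGAGTG (Zeste). GGTCACAC was in 0 of the 12 and 6 of the 40, against 9.55% of genes with an IDR summit and 7.69% of all promoters. Within 100 bases of the summit it was at 1 of the 12, eEF1alpha1, against 3.81% of the 867 distinct summits at all IDR genes. CAGCTG was in 0 of the 12 and 4 of the 40, against 20.3% of genes with an IDR summit and 17.6% of all promoters. TATAAA was in 7 of the 12 and 16 of the 40, against 49.1% of genes with an IDR summit and 45.8% of all. GAGAG was in 1 of the 12 and 7 of the 40, against 28.4% of genes with an IDR summit and 29.7% of all. GCCAT was in 6 of the 12 and 21 of the 40, against 37.3% of genes with an IDR summit and 41.2% of all. TGAGTG was in 1 of the 12 and 3 of the 40, against 7.77% of genes with an IDR summit and 11.8% of all. CTTTT at the start, the core of the TCT initiator known from ribosomal protein genes, was in 0 of the 12 and 8 of the 40, against 8.34% of genes with an IDR summit and 7.2% of all. The windows of the 12 had a median GC content of 32.5%, those of the 40 had 37%, those of all genes with an IDR summit 35.3% and all promoters 38%. A match is a description of letters and not of binding.

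Other translation genes were read from an incomplete list of 60 that do not carry these names. Of them 11 had an IDR summit, 18.3% (Wilson 95% interval 10.6 to 29.9), beside 8.84% of all genes. Gyf on chromosome 4, a regulator of initiation, had the highest relative signal at 20.7 ± 2.51, above eIF4B, followed by the mRNA-binding gene larp at 2.55 ± 0.274, the enzyme gene Dph2 for the diphthamide of eEF2 at 1.77 ± 0.0192, the ribosome rescue gene HBS1 at 1.68 ± 0.157 and the eIF2alpha phosphatase subunit gene PPP1R15 at 1.55 ± 0.197 (SD, n = 2 each). The synthetase genes IleRS, ThrRS, ArgRS and AspRS were 4 of 23 in their group and ran from 0.75 ± 0.0199 at AspRS to 1.42 ± 0.268 at IleRS. Dph4 had 0.897 ± 0.251 and the release factor gene eRF3 0.715 ± 0.27 (SD, n = 2 each). Of the 10 mitochondrial translation factor genes 0 had an IDR summit and 5 had a weaker pooled one, beside 37.9% of all genes with any pooled summit. The order of genes given here holds within the list. 4E-T on chromosome 4, which the list leaves out, had an IDR summit with relative signals of 10.7 in replicate 4 and 14.7 in replicate 6.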

How the data were processed

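Su(var)2-HP2-GFP ChIP-seq from 2 biological replicates of whole embryos was used, with chromatin fragments of 200 to 800 bp per the labels. Per the deposited file listing, a replicate's peaks derive from its alignment and a control, pooled peaks from both alignments with a control, and IDR peaks from the other 3 lists. The build is dm6. The aligner and peak caller: not given in the sources used here. Control reads were not used. The deposited signal value is a score. The deposited −log10 q-values reach a maximum at 3.98 in the pooled list, which all 12 IDR members have, so they were not used for ranking. The IDR peaks proved to be the top 2006 of the pooled peaks by signal. No read numbers are given, so depth is unknown.

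Start sites came from the Ensembl release 115 annotation of the same build and sequence from the RefSeq assembly. The highest summit within 500 bp of any start site of a gene was taken, with Python 3.11.15, NumPy 2.4.6 and SciPy 1.17.1. Pericentromeric parts were 3R below 4.2 Mb, 2R below 5.4 Mb, 3L past 23 Mb, and 2L or X past 22 Mb. No test was made: values are counts with Wilson 95% intervals, medians, and mean ± SD of 2 replicates. Named were every member with an IDR summit, those in heterochromatic parts, the 5 strongest others and genes sharing their summits; further members were named within their role group, chosen after their values were seen. Members, role groups, motifs and lists were chosen with earlier results of these data known. Of the other translation genes, 3 symbols were not matched. Assignment and motif search were checked on simulated data.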

Additional observations from a re-analysis of the deposited data

How the results depend on the processing

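Members in the IDR list numbered 12 (23.1%, against 8.84% of all genes). They numbered 10 at 250 bp (19.2%, against 7.21%), 13 at 1000 bp (25%, against 9.96%), 9 in the upper 1003 IDR peaks (17.3%, against 4.95%), 9 in the IDR peaks that were strong in each replicate (17.3%, against 6.64%) and 11 with the outermost start only (21.2%, against 7.97%). Leaving out a replicate gave 10 without replicate 6 (19.2%, against 8.46%) and 11 without replicate 4 (21.2%, against 8.74%). With the factor nearest to its summit it was 8 (15.4%). This rule was not applied to all genes, so that count has no background to be set against. It was 29 with pooled peaks of q under 0.05, a longer list by construction (55.8%, against 26.6%). With summits anywhere inside the gene body it was 3, or 5.77%, against 4.62% of all genes. These were eEF1alpha1, eEF2 and eIF5B, whose start-site summits lie inside the gene. The gene-body count is therefore a part of the start-site count, and the 2 cannot be set against each other. eEF2, eIF1 and eIF5B were the genes lost in the upper 1003 peaks and in the peaks strong in both replicates. The median relative signal of 0.324 became 0.388 at 1000 bp, and 0.337 to 0.417 with either replicate alone. The median of the 15 named members with both replicates, 1.1, was 1.06 to 1.21 with either replicate alone and 6.22 when signal was divided by the median of all peaks in a list, which changes the scale and kept all 15 in the same order. Moving borders outward by 0.5 Mb put eEF2 and eIF3a in the pericentromeric part, with 2 of 3 members in the IDR list instead of 1 of 1, and left 9 arm members in it. Around the summit TATAAA was at 25% of IDR members, against 58.3% in the promoter window. Over all IDR genes it was at 43.5% of the distinct summits and in 49.1% of the promoter windows. GAGAG was at 0 of the member summits, against 8.33% of their promoter windows, and over all IDR genes at 16.3% and 28.4%. The window around the summit is shorter than the promoter window, and the cause of the differences was not tested. Depth is unknown, so the absence of a summit is not an absence of occupancy, and an SD from 2 replicates is imprecise.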

Other observations

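eIF2gamma, a subunit of the initiator tRNA carrier, shares its outermost start region with the histone methyltransferase gene Su(var)3-9, and a pooled summit at position 15263663 of 3R lay 205 bp from that start and 111 bp from the start of the divergent gene Set. Its relative signal was 0.28 in replicate 4 and 0.187 in replicate 6, and it was outside the IDR list. The genes kra and CG7483, looked at after the values were known, carry factor names in RefSeq as synonyms and were not counted. kra, also called eIF5C, had a relative signal of 0.385 ± 0.00807 and CG7483, also called eIF4A3, had 0.175 ± 0.123 (SD, n = 2 each), both outside the IDR list.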
